A study of Drosophila melanogaster with 8 samples.

Results

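The cuticle protein genes of Drosophila melanogaster were examined in whole mid second instar larvae that lacked lactate dehydrogenase, the enzyme that converts pyruvate to lactate. Members were the features of the count files whose FlyBase symbol begins with Cpr and a number, Lcp, Ccp84A, Acp65A, Twdl or Edg. There were 124 such genes among 17445 features, and all of them had an entry in the files. They comprised 70 Cpr, 26 Twdl, 17 Lcp, 7 Ccp84A, 3 Edg and 1 Acp65A gene, of which 3 were annotated as pseudogenes. The Ldh mutants were w[1118]; Ldh[16/17] and the controls were w[1118]; Ldh[precise], so both groups carried the w[1118] allele and differed at Ldh. Total RNA was taken with trizol from 25 pooled larvae per sample, grown for 60 h at 25 °C on molasses agar with yeast paste. There were 4 mutant libraries (replicates 1, 2, 3 and 6) and 4 control libraries (replicates 1, 2, 5 and 6). Separate cultures are not mentioned in the labels, so the p-values here speak of the spread among these 8 samples, which may be technical.

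The insect cuticle is a matrix of chitin and protein that the epidermis secretes, and a larva sheds and rebuilds it at every moult. Most Cpr and Lcp proteins carry the Rebers and Riddiford domain, which binds chitin, while the Tweedle proteins encoded by Twdl genes form a separate family that is known for its effect on body shape. Lcp stands for larval cuticle protein, Acp for adult cuticle protein and Edg for ecdysone-dependent gene, and the Ccp84A genes are a cuticle protein cluster on chromosome arm 3R. Because many of these genes are transcribed in short windows between moults, their reads were examined as a check of whether the groups were at a like stage.

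The libraries held 371700 to 560865 reads assigned to genes. Ldh itself had 0 reads in the mutants and 13 in the controls, with 1 to 5 per control library. The strand on which reads were counted is not given in the sources used here. Entries that fitted several features were 0.0255% to 0.035% of each file, so features on opposite strands were mostly counted apart. Which strand a gene's reads came from was not tested. The levels and fold changes given for members may therefore not be those of their own RNA. Features with an exon opposite another exon made up 26.1% of the 17151 features that could be placed in the annotation and held 94.2% of the gene-assigned reads. The 88 ribosomal protein genes, which every cell uses, held 0.518% of the gene-assigned reads, and 7 of them had none. The absence of reads for a cuticle protein gene in these files is therefore not a limit on its RNA. Among markers of other tissues, the muscle list summed to 797 to 1111 reads across the mutants and to 732 to 1359 across the controls, with all 9 genes read. The list for the epidermis, the tissue that makes cuticle, summed to 2 to 8 reads across the mutants and to 2 to 7 across the controls, with all 4 genes read. Low sums were not particular to the epidermis. Over both groups the fat body list summed to 10 to 21 reads per library, the midgut list to 4 to 15 and the trachea list to 1 to 9. The haemocyte list summed to 35 to 78 and the neuron list to 848 to 1148. Nearly all neuron reads were those of elav, with 847 to 1141 per library, while nSyb, Syt1 and brp had at most 6 each. Most haemocyte reads were those of He and Pxn, and eater had 0. In the salivary gland list, the glue genes Sgs3, Sgs4, Sgs5 and Sgs7 were at 0 in every library, while the glue gene Sgs8 had 2 and 1 reads in mutant replicates 2 and 3 and the transcription factor gene fkh had 2, 1, 1 and 1 reads in mutants, against 1, 1, 0 and 1 in controls.

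Reads were found for 77 of the 124 members, and 47 had none in any of the 8 libraries. The members held 1379 reads in all, 726 in the Ldh mutants and 653 in the controls. A count of 0 over all 8 libraries allows up to 3 reads, or 0.826 CPM (reads scaled to the depth of a library by its gene-assigned total and TMM factor), and that limit covers counting error only. In bulk larvae, fewer cells of a type and less RNA per cell cannot be told apart. Of the 77 genes, 17 were read in every library, 52 in both groups, 18 in mutants alone with at most 5 reads each and 7 in controls alone with at most 1 read each. Members read in 1 library only numbered 6, 6, 1 and 1 in mutant replicates 1, 2, 3 and 6. In control replicates 1, 2, 5 and 6 they numbered 3, 3, 0 and 1. The mutants also had more gene-assigned reads, 1879530 against 1752216. The like split over all features is not given here. A single read was all that 18 of the 77 genes had. A minimum of 5 reads left 38 genes, a minimum of 8 left 28 and a minimum of 20 left 15.

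The families were read unequally. Cpr genes held 1054 reads, 553 in mutants and 501 in controls, or 76.4% of the members' reads, with 43 of 70 genes read. Twdl genes held 168 reads, 84 in each group, with 18 of 26 genes read. Lcp genes held 100 reads, 60 in mutants and 40 in controls, with 13 of 17 genes read. The ecdysone-dependent genes were represented by Edg78E alone, since Edg84A and Edg91 had no read. The Ccp84A cluster was nearly silent in the files, with 1 read in 1 of 7 genes. Reads also differed by chromosome arm: the 48 members on 3L held 645 reads and the 28 on 2R held 492, whereas the 34 on 3R held 51. The 8 members on X held 160 reads and the 6 on 2L held 31. On 3L, Cpr73D alone held 288 of the 645 reads. Shares per arm over all features were not compared.

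**Figure D1:**
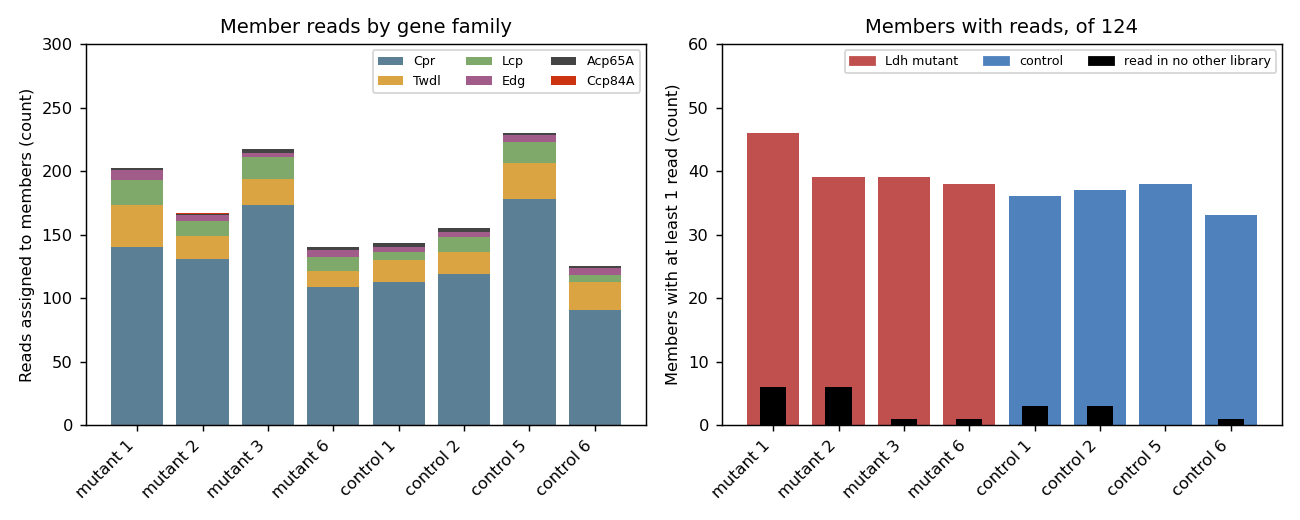
Left, reads assigned to the members in each of the 4 Ldh mutant and 4 control libraries, stacked by gene family. Right, members with at least 1 read, with the black bars giving those read in no other library; the counts run from 38 to 46 in mutants and from 33 to 38 in controls.

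The total over the members differed between the groups by less than the spread within the mutants. Member reads numbered 202, 167, 217 and 140 in mutant replicates 1, 2, 3 and 6, against 143, 155, 230 and 125 in control replicates 1, 2, 5 and 6. The summed level was 395 ± 85.0 CPM in mutants and 362 ± 29.1 CPM in controls (SD, n = 4 each), and the ranges overlapped. Without Cpr73D, the gene with the most reads, the sums were 302 ± 57.6 CPM in mutants and 298 ± 22.2 CPM in controls. As a share of gene-assigned reads, the members took from 0.0306% (95% Wilson interval 0.0259% to 0.0361%) to 0.0474% (0.0413% to 0.0544%) in mutants, and from 0.0336% (0.0282% to 0.0401%) to 0.0410% (0.0360% to 0.0467%) in controls. The highest share was in mutant replicate 1 and the lowest in mutant replicate 6, so the mutants lay on both sides of the controls.

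Per kilobase of exon, the median member was read more than the median of other genes, though a smaller share had any read. The 117 members with no exon on the opposite strand had a median of 1.77 reads per kb over the 8 libraries, with quartiles of 0 and 6.83, and 61.5% had a read. The 9825 other protein-coding genes with no opposite exon had a median of 1.01 reads per kb, with quartiles of 0 and 4.25, and 66.0% had a read. On the same scale, the highest members were Cpr65Au at 177, Cpr51A at 157, Cpr60D at 117, Cpr67Fb at 114 and Cpr73D at 95 reads per kb. The order by total reads was different, because the exons of Cpr73D span 3030 bases and those of Cpr67Fb 457.

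Only 4 members, all Cpr genes, had enough reads to pass the filter on low counts, and none was called in edgeR's quasi-likelihood test at an adjusted p under 0.05, beside 3.17% of the 2589 features tested (1.54% higher and 1.62% lower in mutants). None of the 4 had an unadjusted p under 0.05, beside 15.4% of all features tested, and DESeq2 and limma-voom also called 0. In the tables as a whole, 82 features were called, 40 higher and 42 lower in the mutants.

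Cpr73D, an RR-type chitin-binding protein gene at chr3L:16939100-16957689, had 44, 36, 66 and 25 reads in the mutants, against 23, 29, 43 and 22 reads in the controls. Mutant replicate 3 was the highest and the groups overlapped. Its level was 92.4 ± 35.8 CPM in mutants and 64.5 ± 8.28 CPM in controls, a log2 fold change of 0.51 (SE 0.25, 95% interval -0.04 to 1.05, edgeR adjusted p = 0.36). In a fit without mutant replicate 6 the log2 fold change was 0.69 with an adjusted p of 0.18, the lowest that any member reached under any setting. Without mutant replicate 3 it was 0.24, and without both mutant replicates 1 and 3 it was -0.03. Its exons overlap those of Ogdh, a subunit of the 2-oxoglutarate dehydrogenase complex, on the other strand by 294 bases.

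Cpr51A, at chr2R:14512559-14515211, had 17, 7, 14 and 17 reads in the mutants, against 12, 6, 22 and 7 reads in the controls. The libraries of both groups were interleaved, with control replicate 5 the highest in reads. The log2 fold change was 0.20 (SE 0.37, 95% interval -0.60 to 1.0, edgeR adjusted p = 0.88), and without mutant replicates 1 and 3 it was -0.04.

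Cpr49Ac, at chr2R:12386666-12390057, had 11, 6, 15 and 9 reads in the mutants, against 11, 15, 22 and 7 reads in the controls. It was the only one of the tested members whose mean was lower in mutants, 22.3 ± 8.20 CPM against 29.8 ± 8.87 CPM in controls, and the groups overlapped. The log2 fold change was -0.45 (SE 0.33, 95% interval -1.16 to 0.26, edgeR adjusted p = 0.613). It lay between -0.68 (without mutant replicate 3) and -0.23 when 1 library was left out, and at -0.95 without both mutant replicates 1 and 3 (adjusted p = 0.257).

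Cpr65Au, at chr3L:6131242-6132109, had 13, 24, 8 and 7 reads in the mutants, against 17, 18, 5 and 1 reads in the controls. It was the most variable of the 4 within the controls, where replicates 1 and 2 were high and replicates 5 and 6 low. The log2 fold change was 0.27 (SE 0.57, 95% interval -0.95 to 1.49, edgeR adjusted p = 0.901) and turned to -0.16 without mutant replicate 2, to -0.08 without control replicate 5 and to -0.07 without control replicate 6. Nearly the whole transcript, 491 of 526 exon bases, lies opposite the noncoding RNA asRNA:CR46005.

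**Figure D2:**
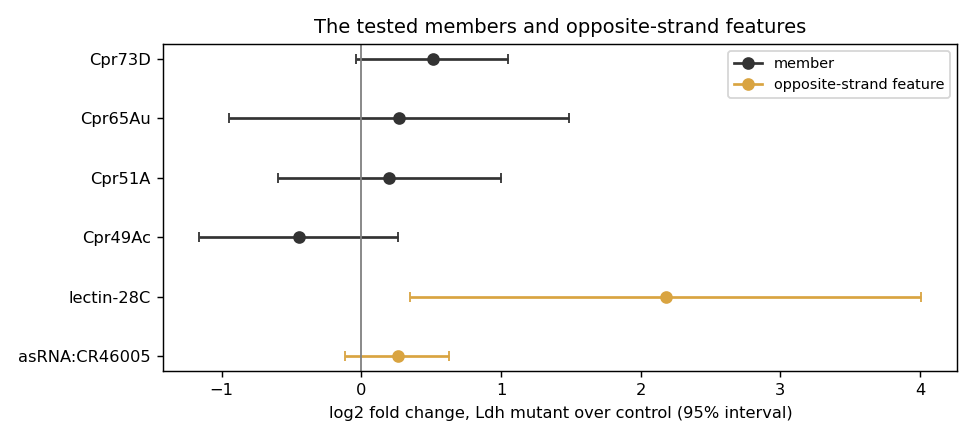
Log2 fold change of Ldh mutant over control with its 95% interval (edgeR, 4 libraries per group) for the 4 members that passed the filter, in black, and for 2 features on the strand opposite a member, in yellow. All 4 member intervals include 0.

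The other 24 members with at least 8 reads were below the filter and were compared with the exact two-sided permutation test on log2(CPM + 1), where 4 against 4 libraries give 70 ordered splits and a smallest p of 0.0286. Of all 28 members with at least 8 reads, 1 had groups that did not overlap (3.57%), beside 5.9% of the 6492 features with as many reads (2.36% higher and 3.54% lower in mutants), and 15 of the 28 had the higher mean in mutants.

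That gene was Twdlalpha, a Tweedle gene at chrX:16742847-16744365. It had 3, 4, 3 and 2 reads in the mutants, against 4, 5, 10 and 8 reads in the controls. Scaled for depth, every mutant library (4.43 to 8.04 CPM) lay below every control library (10 to 20.9 CPM). The ratio of summed reads, mutant to control, was 0.428 (exact 95% interval 0.198 to 0.874, counting error only), with p = 0.0286 in the exact permutation test, the smallest this design allows. It was below the filter of the fit across all features, and with a filter of 1 CPM in 4 libraries its edgeR adjusted p was 0.424. Its exons share 72 bases with another annotated gene on the same strand, CG32568.

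Its neighbours on the X chromosome did not separate the groups. TwdlX had 2, 0, 5 and 4 reads in mutants, against 2, 4, 3 and 1 in controls, and TwdlY had 5, 1, 3 and 0 in mutants, against 3, 0, 3 and 2 in controls. TwdlZ had 4 reads in mutants and 11 in controls (exact permutation p = 0.114), and 1 read or none in 3 mutant libraries. In each of the 3 genes the groups overlapped.

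Among the Cpr genes below the filter, Cpr60D, at chr2R:24662682-24663406, had 11, 8, 10 and 7 reads in mutants, against 7, 9, 17 and 9 in controls, with overlapping groups (exact permutation p = 0.343). Cpr11A, on X, had 34 reads in each group, and mutant replicate 6 and control replicate 6 were the highest of their groups at 28.8 and 31.4 CPM. Cpr47Eb had 2, 8, 7 and 3 reads in mutants, against 8, 8, 7 and 8 in controls (exact permutation p = 0.114). The ratio of its summed reads, mutant to control, was 0.622 with an exact 95% interval of 0.336 to 1.13, which includes 1.

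Cpr67Fb, at chr3L:10894173-10894693, had 5, 8, 12 and 7 reads in mutants, against 7, 2, 7 and 4 in controls. The groups overlapped and the ratio was 1.54 (exact 95% interval 0.855 to 2.84, exact permutation p = 0.2). Cpr47Ec had 1, 2, 9 and 2 reads in mutants, against 2, 2, 6 and 3 in controls, so 9 of its 14 mutant reads came from replicate 3.

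The larval cuticle protein genes were read mainly through Lcp4, at chr2R:8437647-8438495, a major cuticle protein of the third instar. Lcp4 had 8, 5, 11 and 4 reads in mutants, against 4, 4, 10 and 4 in controls, and the groups overlapped (exact permutation p = 0.486). Its neighbours Lcp1, Lcp2 and Lcp3 had 3, 4 and 1 reads in all. Lcp65Af had 12 reads in mutants and 5 in controls, with 3, 5, 2 and 2 against 1, 2, 1 and 1 (exact permutation p = 0.0857). The ratio for Lcp65Af was 2.31 with an exact 95% interval of 0.758 to 8.38. Genes with numbered copies had few reads: Lcp65Ab1 and Lcp65Ab2 had 0 reads, Lcp65Ag1, Lcp65Ag2 and Lcp65Ag3 had 1, 7 and 0, Cpr65Ax1 and Cpr65Ax2 had 0 and 5, and Cpr67Fa1 and Cpr67Fa2 had 3 each. Alignments that were not unique, 21.2% to 33.7% of the entries in each file, were kept out of gene counts, so the level of such copies is uncertain.

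Edg78E, at chr3L:21296763-21297803, had 8, 4, 3 and 6 reads in mutants, against 4, 4, 5 and 6 in controls. Its groups overlapped, with means of 11.7 ± 5.87 CPM in mutants and 11 ± 3.21 CPM in controls (exact permutation p = 1). Acp65Aa, named for the adult cuticle, had 1, 1, 3 and 2 reads in mutants, against 3, 3, 2 and 1 in controls, and also overlapped (exact permutation p = 0.429). Ccp84Ae gave the single read of its cluster, in mutant replicate 2. Edg84A next to it and the other 6 Ccp84A genes had none.

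**Figure D3:**
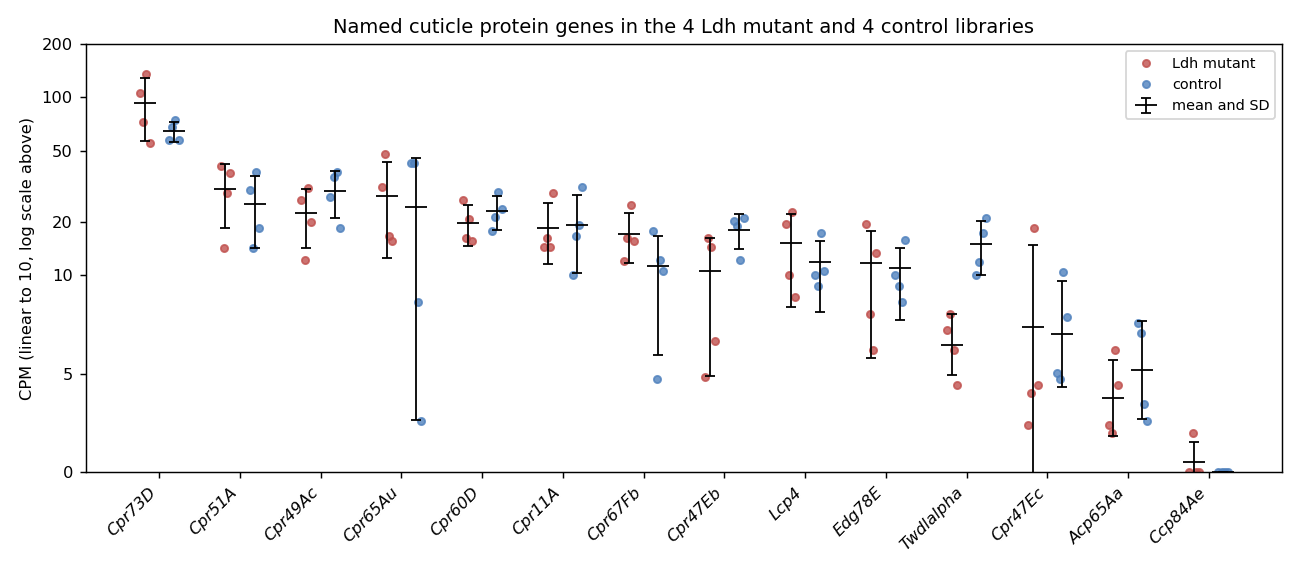
Level of 14 named members in CPM (linear to 10, logarithmic above) in each Ldh mutant library (red) and control library (blue), with the mean and SD of each group (n = 4). Twdlalpha is the one gene whose mutant points, 4.43 to 8.04 CPM, all lie below its control points, 10 to 20.9 CPM.

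Most members lie in tandem clusters: 15 clusters of at least 3 genes, with gaps of at most 20000 bases, held 91 of the 124. The largest, from Lcp65Ag3 to Cpr65Az on 3L, had 13 of its 19 members read. Its reads numbered 27, 36, 19 and 17 in mutants, against 26, 30, 13 and 4 in controls, so control replicate 6 was the lowest of the 8 and the groups overlapped. The 12 Tweedle genes from TwdlM to TwdlD on 3R had 15, 7, 1 and 1 reads in mutants, against 2, 3, 2 and 1 in controls. Here mutant replicates 1 and 2 stood above the other 6 libraries. TwdlM, with 5 reads, and TwdlH, with 4, were read in mutant replicate 1 alone, and TwdlO had 2 and 5 reads in mutant replicates 1 and 2. These Tweedle genes were picked out after their values were seen.

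**Figure D4:**
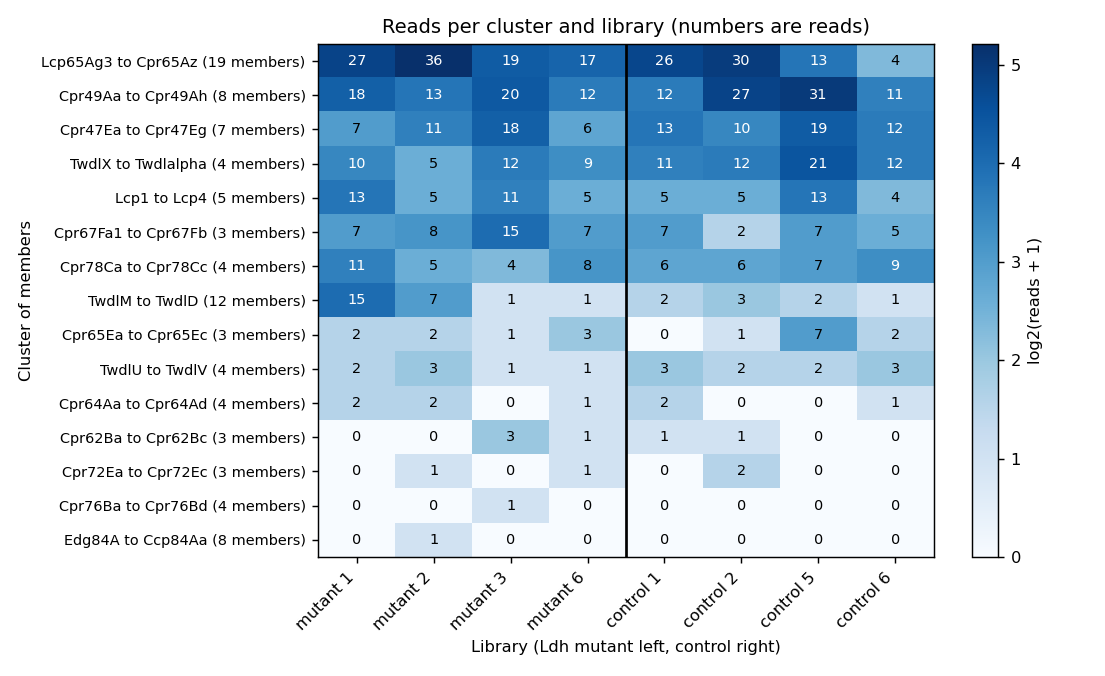
Reads summed over the members of each of the 15 clusters (rows) in each library (columns, Ldh mutant left of the line, control right); colour is log2(reads + 1). The TwdlM to TwdlD cluster has 15 and 7 reads in mutant replicates 1 and 2 and 1 to 3 in the other 6 libraries.

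Because strand could not be settled, the 5 features whose exons lie opposite a member over at least 50 bases were followed as well. Of the 5, Ogdh had fewer reads (23) than the member it faces, Cpr73D (288). Together they had 1746, 537, 204 and 341 reads in mutants, against 233, 211, 249 and 227 in controls, so the controls lay close together and the mutants spread on both sides of them. The group means were 1614 ± 1746 CPM in mutants and 527 ± 77.5 CPM in controls.

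The noncoding RNA asRNA:CR46005, at chr3L:6125398-6132074, covers all 543 bases of Lcp65Ag3, which had 0 reads, and most of Cpr65Au. It had 179, 267, 162 and 307 reads in mutants, against 187, 179, 226 and 144 in controls, with overlapping groups. By edgeR its log2 fold change was 0.26 ± 0.18 (SE), with an adjusted p of 0.563, and in a fit without mutant replicates 1 and 3 it was 0.55 with an adjusted p of 0.0237. Most of its length lies outside the 2 members, and it also faces l(3)mbn.

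lectin-28C, a C-type lectin gene at chr2L:7857077-7860120, faces TwdlE over 968 bases. It had 434, 233, 17 and 21 reads in mutants, against 33, 21, 13 and 80 in controls. Mutant replicates 1 and 2 were the highest of the 8, whereas mutant replicates 3 and 6 lay within the range of the controls. The log2 fold change was 2.18 (SE 0.85, 95% interval 0.35 to 4.01, edgeR adjusted p = 0.219). In fits that left out 1 library it was between 1.09 (without mutant replicate 1, adjusted p = 0.598) and 2.98 (without control replicate 6, adjusted p = 0.178), and it passed the threshold without mutant replicate 3 (2.58, adjusted p = 0.0382). TwdlE itself had 4, 3, 7 and 1 reads in mutants, against 1, 0, 3 and 6 in controls, with overlapping groups.

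asRNA:CR45171, at chr3L:10893646-10894743, faces Cpr67Fb over 389 bases. It had 1131, 33, 9 and 10 reads in mutants, against 9, 10, 6 and 2 in controls. A single library, mutant replicate 1, held nearly all of its reads, and the level of Cpr67Fb in that library was 12 CPM, the lowest among the mutants. The RNA was below the filter, and its exact permutation p was 0.171. Or47a, an odorant receptor gene that faces the unread Cpr47Ea over 163 bases, had 12 reads, all in mutant replicate 3. Ogdh, opposite Cpr73D, had 2, 4, 4 and 3 reads in mutants, against 4, 1, 4 and 1 in controls.

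**Figure D5:**
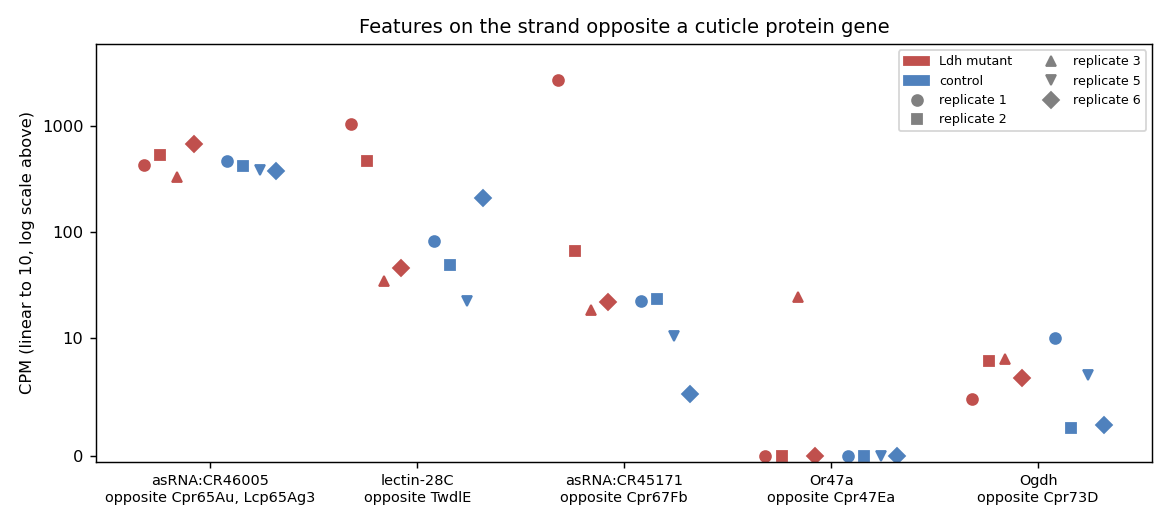
Level in CPM (linear to 10, logarithmic above) of the 5 features opposite a member in each library, red for Ldh mutant and blue for control, with marker shape giving the replicate. Mutant replicate 1 reaches 2722 CPM for asRNA:CR45171, while its other mutant libraries lie between 18.5 and 66.3 CPM.

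Mutant replicate 1 thus had the most members read (46, against 38 or 39 in the other mutants and 33 to 38 in the controls), the most reads in the TwdlM to TwdlD cluster and the most reads for asRNA:CR45171 and lectin-28C. Mutant replicate 3 had the most reads for Cpr73D, Cpr47Ec and Or47a, and it also held 3053 of the 3099 reads of asRNA:CR11538, which faces Lsp2, a larval serum protein gene of the fat body, and was picked out after its values were seen. The part of these libraries in the comparisons was not tested beyond the fits that left them out.

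The replicates were compared by correlation of log2(CPM + 1) over genes, which are not independent replicates. Over the 77 members with reads, Pearson's r was 0.62 to 0.79 between mutant libraries (median 0.66), 0.66 to 0.80 between control libraries (median 0.71) and 0.56 to 0.84 between a mutant and a control library (median 0.76). The median across groups was not below that within either group. The 10062 other features with 1 to 288 reads had higher medians than the members, 0.78 within mutants, 0.80 within controls and 0.79 between groups. Over the 28 members with at least 8 reads the medians were 0.66 within mutants, 0.53 within controls and 0.61 between groups. The 5130 other features with 8 to 288 reads had medians of 0.71 within mutants, 0.74 within controls and 0.71 between groups. The libraries differed in depth, and r over so few reads is a description only.

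Genes listed for a part in moulting were counted from 6 lists. These were ecdysone response, ecdysone synthesis and turnover, chitin synthesis and turnover, tanning and pigment, other cuticle proteins, and ecdysis peptides. The counted genes include lost, which was matched to the listed symbol nvd by a synonym, and chif. A role of lost or chif in moulting was not checked, and neither could be tested. The listed symbols br and phm could not be matched and were left out. Of 104 listed genes, 92 had reads and 16 could be tested. edgeR called 0 of the 16, beside the 3.17% called over all features, and 2 had an unadjusted p under 0.05, beside 15.4% over all features. The median log2 fold change was 0.14 for the 2 tested ecdysone response genes, 0.12 for 4 of synthesis, -0.40 for 3 of chitin, 0.27 for 4 of tanning and -0.01 for 3 other cuticle genes, beside 0.01 for all 2589 features. The listed genes and opposite-strand RNAs named next were picked after their values were seen.

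None of the 6 tested ecdysone genes passed the threshold. dib, a cytochrome P450 of ecdysone synthesis, had 74, 76, 111 and 76 reads in mutants, against 72, 67, 100 and 56 in controls. edgeR gave it a log2 fold change of 0.15 ± 0.15 (SE) and an adjusted p of 0.743. The nuclear receptor gene Hr4 had 31, 28, 35 and 33 reads in mutants, against 28, 37, 40 and 41 in controls, at -0.26 ± 0.19 (SE) on the log2 scale with an adjusted p of 0.613 in edgeR. In both genes the groups overlapped.

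The lowest adjusted p among the listed genes belonged to Cda5, a chitin deacetylase gene, which had 12, 17, 24 and 9 reads in mutants, against 36, 15, 43 and 36 in controls. It stood at -1.12 ± 0.32 (SE) on the log2 scale with an adjusted p of 0.079 in edgeR, and control replicate 2 lay within the mutant range. Of 13 tested features on the strand opposite a listed gene, edgeR called 1 higher and 1 lower in mutants at an adjusted p under 0.05, beside 1.54% and 1.62% of all features tested. asRNA:CR44703, opposite the chitinase-family gene Cht9, had 486, 704, 3930 and 1346 reads in mutants, against 44, 81, 27 and 20 in controls. The edgeR estimate was 5.12 ± 0.63 (SE) on the log2 scale, with an adjusted p of 2.08e-04. asRNA:CR43933, opposite the nuclear receptor gene Hr78, had 271, 279, 348 and 288 reads in mutants, against 388, 396, 577 and 413 in controls. Its edgeR estimate was -0.63 ± 0.11 (SE), with an adjusted p of 0.00245. For both RNAs every mutant library lay on one side of every control library, as for 5.9% of the features with at least 8 reads.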

How the data were processed

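Counts of reads per gene, deposited by the authors for each of the 8 libraries, were used as they stand. The submitters' processing notes name HTSeq 0.6.1p1, TopHat2 2.0.13 with Bowtie2 2.2.4, Trimmomatic 0.32, CASAVA and DESeq2. Library kit, strand and annotation are not given in the sources used here. The 5 summary lines per file were left out, and reads assigned to genes were 1.24% to 1.62% of the entries. A further 65.1% to 77.2% were assigned to no feature. These may include reads inside genes on a strand that was not counted.

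Features were filtered with filterByExpr, scaled by TMM and tested with edgeR 4.0.16 (quasi-likelihood, R 4.3.3), with Benjamini-Hochberg adjustment over the 2589 features tested. On simulated counts, 33.9% of features changed 1.5-fold and 82.2% of those changed 2-fold were recovered, and 7.41% of calls were false. These rates are for the 2589 features that passed the filter. They do not describe the 120 members that did not pass it. As averages over all those features, they were not computed for the 4 members that passed, whose SEs were 0.25 to 0.57. Of these, Cpr51A, Cpr49Ac and Cpr65Au had only 102, 96 and 93 reads. Single members with at least 8 reads below the filter were compared with the exact permutation test. Positions and exon overlaps came from Ensembl release 115 of BDGP6, which may not be the build of the files.

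Named members were those that passed the filter, the 12 with the most reads, the top of each family and those with at least 8 reads whose groups did not overlap, with opposite-strand features of 50 bases or more. Members and lists were chosen with earlier results of these data known. Of the listed symbols, 10 could not be matched and were left out. Alternatives were other scalings and filters, DESeq2 1.42.0, limma-voom 3.58.1, robust estimation, a replicate block and leaving out each library. Wilson intervals and intervals of read ratios cover counting error only, while edgeR's include the spread between libraries.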

Additional observations from a re-analysis of the deposited data

Results flagged for a closer look

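Among 42 sets of 4 libraries examined, 7 had 1 library far from the other 3 by Dixon's ratio. In 2 of them, Ccp84Ae and Or47a, the other 3 libraries were all at 0, which fixes the ratio at 1, so they say nothing beyond their values. The other 5 stand beside about 2 that chance gives for continuous values. The number of members with reads was 46 in mutant replicate 1, against 38 to 39 in the other mutants. Of the members, Cpr11A was at 28.8 CPM in mutant replicate 6, against 14.4 to 16.1 CPM in the other mutants, and Cpr47Ec at 18.5 CPM in mutant replicate 3, against 2.41 to 4.43 CPM. Lcp4 was at 17.3 CPM in control replicate 5, against 9.44 to 10.5 CPM in the other controls. Ccp84Ae was at 2.01 CPM, a single read, in mutant replicate 2 and at 0 in the other mutants. Of the features opposite a member, asRNA:CR45171 was at 2722 CPM in mutant replicate 1, against 18.5 to 66.3 CPM in the other mutants, and Or47a was at 24.7 CPM in mutant replicate 3 and at 0 in the others.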

How the results depend on the processing

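No member was called in any of 20 settings, in which 4 to 77 members were tested and 0 to 5 had an unadjusted p under 0.05. Those counts included 2 of 34 with a filter of 1 CPM in 4 libraries and 5 of 77 with no filter. In the comparison as reported, 15.4% of the 2589 features tested had such a p. The fits with 34 and 77 members covered 7549 and 11473 features. Their own share is not given here, so the 15.4% is not a like share for them. The number of members with reads was 77, against 38, 27 and 15 with a minimum of 5, 10 and 20 reads. Over all features, 82 calls became 184 with no filter on low counts, and 57 to 164 when 1 library was left out, the most without mutant replicate 3. A fit without mutant replicates 1 and 3, chosen after seeing the data, gave 151, and there Cpr51A was at -0.04, Cpr73D at -0.03 and Cpr49Ac at -0.95 on the log2 scale, while asRNA:CR46005 passed the threshold at 0.55. Cpr65Au lay between -0.16 and 0.69 when 1 library was left out, and turned to -0.16, -0.08 and -0.07 without mutant replicate 2, control replicate 5 and control replicate 6. lectin-28C passed without mutant replicate 3 (2.58) and with no filter (2.18, edgeR adjusted p = 9.77e-34). With no filter its SE was 0.17, against 0.85 in the comparison as reported, for the same reads. Its mutant reads were 434, 233, 17 and 21 and its exact permutation p was 0.4. The adjusted p with no filter should therefore not be read as strong evidence. With replicate numbers 1, 2 and 6 as a block there were 138 calls, against 118 for the same 6 libraries without it, also chosen after seeing the data, and 0 members in both. The correlation of same-numbered libraries' deviations was -0.113, 0.009 and -0.038, against -0.076 to 0.143 for libraries with different numbers. So few pairs cannot decide whether the numbers pair the samples. No member had more than 288 reads, which limits the precision.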
